A study of Mus musculus with 6 samples.

Results

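The cells described here are neutrophils of the mouse lung that carried transcripts of Retnlg, Mmp8 or Stfa2l1 and few granule or interferon-response transcripts. They were chosen by measured counts. A barcode was kept as a cell at 500 or more UMIs (unique molecular identifiers, each counting 1 captured RNA molecule), 300 or more genes and under 20% mitochondrial UMIs. It was gated as a neutrophil when at least 3 of the 6 genes S100a8, S100a9, Hdc, Il1r2, Csf3r and Cxcr2 were detected and together held at least 0.2% of its UMIs, with 0 UMIs of Cd3e, Cd79a, Ms4a6d, Marco, Cdh5 and Col1a2. Members then had fewer than 2 UMIs of Ngp, Camp and Ltf together, fewer than 3 UMIs of Rsad2, Ifit1, Ifit2 and Ifit3 together, and at least 2 UMIs of Retnlg, Mmp8 and Stfa2l1 together. There were 10321 members among 76800 kept cells, of which 21132 passed the neutrophil gate. The rest of the gate held 6471 late neutrophils, which miss only the last step, 3476 interferon-signature neutrophils and 864 granule-gene-rich neutrophils. The 22 genes of this rule set membership, so their levels are given as a description without a test.

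The cells came from lungs of male C57BL/6J mice aged 12 weeks, taken on day 3, with 2 libraries per group. In the SLC_LPS group, mice received lipopolysaccharide (LPS, a component of the outer membrane of Gram-negative bacteria) at 1 mg/kg together with 7 activations of the SLC, which the series title spells out as the subcoeruleus nucleus and the labels name SLC-Gq. Mice of the LPS group received the same dose of LPS alone, and control mice received PBS. The promoter or cell type behind the Gq tool and the timing of the activations are not stated in the labels, and mice with SLC activation alone were not analysed here. Cells from digested lung, after removal of dead cells, were captured in the microwells of the BD Rhapsody system.

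Neutrophils leave the bone marrow with their granule proteins already made, circulate for a short time and enter inflamed tissue. Retnlg encodes a small secreted resistin-like protein, Mmp8 a collagenase stored in granules, and Stfa2l1 a stefin, an inhibitor of cysteine proteases. S100a8 and S100a9 form calprotectin, the most abundant cytosolic protein complex of these cells. Genes of primary and secondary granules are transcribed in marrow precursors and are shut off as cells mature.

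The 6 libraries held 31589233 to 48641470 UMIs, and 11608 to 13710 cells per library were kept with a median of 1134 to 2606 UMIs. Members summed to 2575604 to 4379455 UMIs in the treated libraries and to 945971 to 1628346 UMIs in the control libraries. No member barcode was shared between libraries. LPS_2 stood apart: its members had a median of 2521.5 UMIs against 1059 to 1505 in the other libraries, and 4.52% of their UMIs were expected from free RNA, which is RNA from outside the cell and was estimated from barcodes with few UMIs, against 17.5% to 31.9% in the others. Over genes, chi-square per degree of freedom between the libraries of a group was 32.6 in SLC_LPS, 45.3 in LPS and 4.24 in control. This measure grows with depth, and the control sums hold the fewest UMIs, so the values do not compare the spread of the groups. Levels below are CPM, the usual scaling of a gene's share of the UMIs summed over the members of a library, and fold changes are log2 values with a standard error (SE).

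As a group these cells carried Retnlg, Mmp8 and Stfa2l1, but single members often lacked 1 of the 3 genes. Retnlg was detected in 62.7% and 86.4% of members in SLC_LPS, 85.9% and 92.6% in LPS, and 90.7% and 92% in control. SLC_LPS_1 was the lowest library for Retnlg, and 37.3% of its members had no Retnlg UMI. Mmp8 was detected in 77.4% and 83.6% of members in SLC_LPS, 72% and 81.8% in LPS, and 68.7% and 58.3% in control. Stfa2l1 was detected in 52.7% and 42.7% of members in SLC_LPS, 46.3% and 62.8% in LPS, and 36.3% and 29.1% in control. For Mmp8 and Stfa2l1 every control library was under every treated library, while for Retnlg the control libraries overlapped those of LPS. After each member was thinned to 500 UMIs, these shares were 18.2% to 34% for Stfa2l1, 42.3% to 68.8% for Mmp8 and 48.8% to 81.8% for Retnlg, with control libraries lowest for Stfa2l1 and Mmp8. B cells, which should lack Retnlg, carried a Retnlg UMI in 5.13% and 21.4% of cells in SLC_LPS, 28% and 21.6% in LPS, and 5.36% and 3.57% in control, at median depths of 1091.5 to 1736 UMIs. At least 2 UMIs of the 3 genes were found in 2.56% and 11.2%, 7.77% and 9.06%, and 1.84% and 1.37% of B cells of SLC_LPS, LPS and control, and the part of free RNA in cells near the threshold was not tested.

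Pooled over libraries, many cells lay close to the threshold of 2 UMIs. Across libraries, 1502 members had exactly 2 UMIs of the 3 genes and 1069 had 3, while 2395 late neutrophils had 1 and 4076 had none. Cells with 7 or more UMIs of the 3 genes numbered 5783. The libraries differed in these shares of members and late neutrophils together. With 2 UMIs they were 10.1% and 7.85% in SLC_LPS, 9.41% and 4.68% in LPS, and 10.6% and 12% in control. With 6 UMIs they were 2.7% and 3.37%, 2.1% and 1.86%, and 6.01% and 4.92% in the same order. With 7 or more they were 23% and 38.7%, 34.1% and 58.7%, and 38.3% and 23.3%. In the summed counts Retnlg reached 4403 and 7684 CPM in SLC_LPS, 10529 and 14069 CPM in LPS, and 4285 and 4679 CPM in control, and the late neutrophils held 68.6 to 282 CPM. Retnlg was not restricted to members, since interferon-signature neutrophils held 1239.9 to 10684 CPM and granule-gene-rich neutrophils 9009.9 to 38733 CPM. Mmp8 was also highest in the granule-gene-rich cells, with 3330.0 to 9272 CPM against 1497 to 3924 CPM in members.

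**Figure D1:**
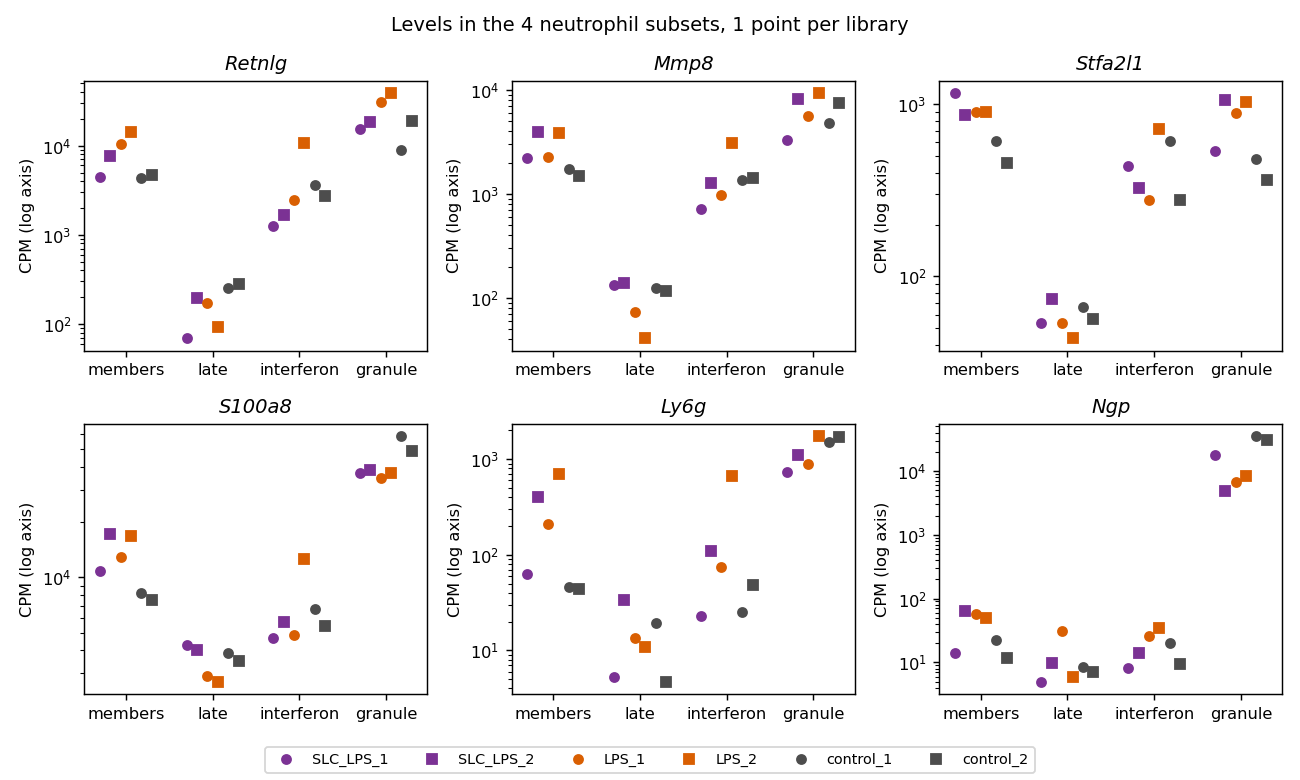
Levels of 6 genes in members and in the late, interferon-signature and granule-gene-rich neutrophils, in CPM of summed UMIs on a log axis with 1 point per library (circles replicate 1, squares replicate 2). Retnlg in members ran from 4285 to 14069 CPM and in late neutrophils from 68.6 to 282 CPM.

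Granule and precursor genes gave a mixed picture of the word mature. Mpo, Elane and Prtn3, proteins of primary granules made in promyelocytes, reached at most 1.1, 1.84 and 1.47 CPM in any library of members, and Ctsg was listed at 0 in every library. Fcnb, a ficolin of precursor cells, reached 1.1 CPM at most, and Cebpe, the transcription factor of granule formation, 1.16 CPM. These genes do not separate the subsets, since in the granule-gene-rich neutrophils they reached only 4.01 CPM for Mpo, 2.01 CPM for Elane, 14 CPM for Prtn3, 24.1 CPM for Fcnb and 12.7 CPM for Cebpe, with Ctsg at 0. Chil3, a chitinase-like protein of the list of immature neutrophil markers, was at 1311 and 741 CPM in SLC_LPS, 565 and 161 CPM in LPS, and 353 and 343 CPM in control in members, against 504 to 7453 CPM in the granule-gene-rich cells. The 6 genes of that list, which include Lcn2 and the 3 granule genes limited by the rule, summed to 2954 to 3061 CPM in SLC_LPS, 1237 to 2752.5 CPM in LPS and 885 to 957 CPM in control. In late neutrophils they summed to 3431 to 3548 CPM in SLC_LPS, 965 to 2476 CPM in LPS and 666 to 669 CPM in control. Chil1, a related chitinase-like gene, stood at 315 to 765 CPM in members and 456 to 820.1 CPM in the granule-gene-rich cells. So low levels of primary granule genes held for every neutrophil subset here, while other genes of immature neutrophils were present in members and in late neutrophils. Ngp, which the rule limits, still summed to 11.6 to 62.9 CPM against 4802 to 34673 CPM in the granule-gene-rich cells. The proliferation gene Mki67 stood at 26.7 to 48.9 CPM in members and 36.1 to 152 CPM in late neutrophils. Siglecf, a marker of tissue neutrophils and of eosinophils, was at 14.8 to 50 CPM in members and 27.4 to 132 CPM in late neutrophils.

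Markers of other cells were low but not absent in members. Of 6 eosinophil, basophil and mast cell genes the summed level was at most 9.21 CPM, and Mcpt8 and Ms4a2 were at 0 in every library. The 10 T and NK cell genes summed to 31.5 to 69.5 CPM in SLC_LPS, 73.2 to 151 CPM in LPS and 127 to 159 CPM in control. The 14 monocyte and macrophage genes summed to 2103 to 2350.1 CPM, 1158 to 1693 CPM and 942 to 974 CPM in the same order of groups. They include Chil3, which is also on the list of immature neutrophil markers above. Chil3 alone held 1311 and 741 CPM in SLC_LPS, 565 and 161 CPM in LPS, and 353 and 343 CPM in control. The 7 fibroblast genes summed to 1017 to 1176 CPM in SLC_LPS, 114 to 1192 CPM in LPS and 2503 to 2937 CPM in control, and none was at 0 in any group. The 6 epithelial genes summed to 198 to 398 CPM, 78.8 to 522 CPM and 1398 to 1902 CPM. Stromal and epithelial transcripts were thus highest in the members of control lungs.

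Members made up a larger share of the lung cells recovered from treated mice than from control mice. They were 20.3% and 17.1% of kept cells in SLC_LPS, 12.4% and 14.6% in LPS, and 8.99% and 6.74% in control. The 3 groups did not overlap in this unthinned share, which also moves with how many other cells were recovered. Within the neutrophil gate the order was different: members were 47.7% and 48.8% of gated neutrophils in SLC_LPS, 40.7% and 45.2% in LPS, and 72.1% and 61.9% in control. Exact binomial 95% intervals covered counting error only and spanned 46.4% to 49% for SLC_LPS_1 and 69.8% to 74.3% for control_1.

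These shares within the gate depend on depth, because each step of the rule counts UMIs. With every cell thinned to 500 UMIs, members were 39.3% and 55% of gated neutrophils in SLC_LPS, 48% and 63.5% in LPS, and 54% and 45.7% in control, and the 3 groups overlapped. The means were 47.1% ± 11.1, 55.7% ± 11 and 49.8% ± 5.88 (SD, n = 2 each). The difference was -8.58 points for SLC_LPS minus LPS (two-sided exact permutation p = 0.667), -2.71 points for SLC_LPS minus control (exact p = 1) and 5.88 points for LPS minus control (exact p = 0.667). With 2 libraries a group the smallest exact p is 0.333. The unthinned difference between SLC_LPS and LPS was 5.35 points in the opposite direction, and that between LPS and control -24.1 points, so no order of the groups within the gate is drawn. As a share of all kept cells after thinning, members were 14.6% ± 1.93 in SLC_LPS, 15.4% ± 5.08 in LPS and 6.49% ± 1.65 in control (SD, n = 2 each; exact p = 0.333 for each treated group against control and 1 between the treated groups).

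**Figure D2:**
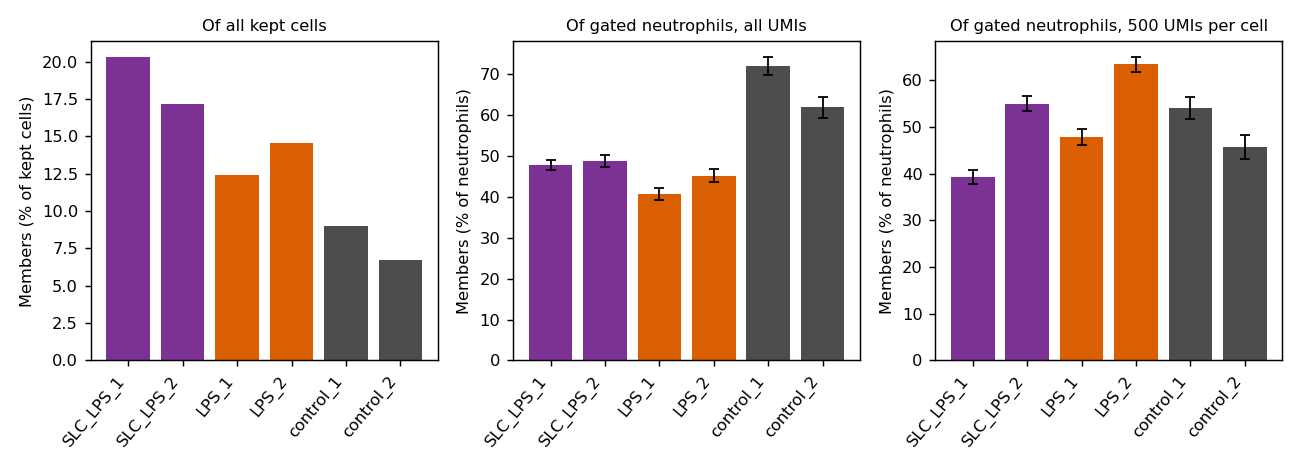
Members per library as a percentage of all kept cells (left), of gated neutrophils with all UMIs (middle) and of gated neutrophils with every cell thinned to 500 UMIs (right); error lines in the middle and on the right are exact binomial 95% intervals of counting. Control libraries were lowest on the left (8.99% and 6.74%), highest in the middle (72.1% and 61.9%) and within the range of the others on the right (54% and 45.7%).

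What else set members apart from late neutrophils is a description, since the rule separates these cells. Of 1624 genes of at least 100 CPM, 283 were higher and 301 were lower in members in all 6 libraries. Ly6g, the granulocyte surface antigen of mouse neutrophils, was at 62.4 and 398 CPM in SLC_LPS, 208 and 702 CPM in LPS, and 46.1 and 43.3 CPM in control in members, and at 5.28 and 33.9 CPM in SLC_LPS, 13.5 and 10.9 CPM in LPS, and 19.5 and 4.71 CPM in control in late neutrophils. Rdh12, a retinol dehydrogenase, was at 323 and 606 CPM in SLC_LPS, 429.7 and 817 CPM in LPS, and 709 and 607 CPM in control in members, and at 56.6 and 111 CPM in SLC_LPS, 60.1 and 82.4 CPM in LPS, and 368 and 379 CPM in control in late neutrophils. The median log2 ratio over libraries was 3.43 for Ly6g and 2.46 for Rdh12. Other genes on the member side were Ifitm6, an interferon-induced transmembrane protein (2.09), the stefin-like Cstdc4 (2.02), R3hdm4 (1.71), the glycogenin Gyg (1.62), Atxn10 (1.56) and the glucose transporter Slc2a3 (1.51).

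Of the genes lower in members than in late neutrophils, 8 are given here. Tnf, the inflammatory cytokine, was at 1304 and 1188 CPM in SLC_LPS, 2212 and 2203 CPM in LPS, and 999.8 and 957 CPM in control in members, and at 2728 and 4040.4 CPM in SLC_LPS, 6300.1 and 4591 CPM in LPS, and 1185 and 1264 CPM in control in late neutrophils, a median log2 ratio of -1.06. Csf1, the macrophage growth factor, had a median log2 ratio of -1.06, and the immediate early transcription factor Egr1 -1.06 with a library as close to 0 as -0.000366. The receptor Tgfbr1 (-1.23), the transcription factor Creb5 (-1.19), the lectin Clec4n (-1.05), Mtdh (-1.03) and Filip1l (-1.01) were on the same side. The 2 subsets were closest in control lungs. The share of genes over 2-fold apart was 2.3% and 9.21% in SLC_LPS, 8.12% and 24.6% in LPS, and 0.394% and 0.199% in control, although the control sums rest on the fewest UMIs. Free RNA, which both subsets of a library share, was also highest in control, and its part in this order was not tested.

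**Figure D3:**
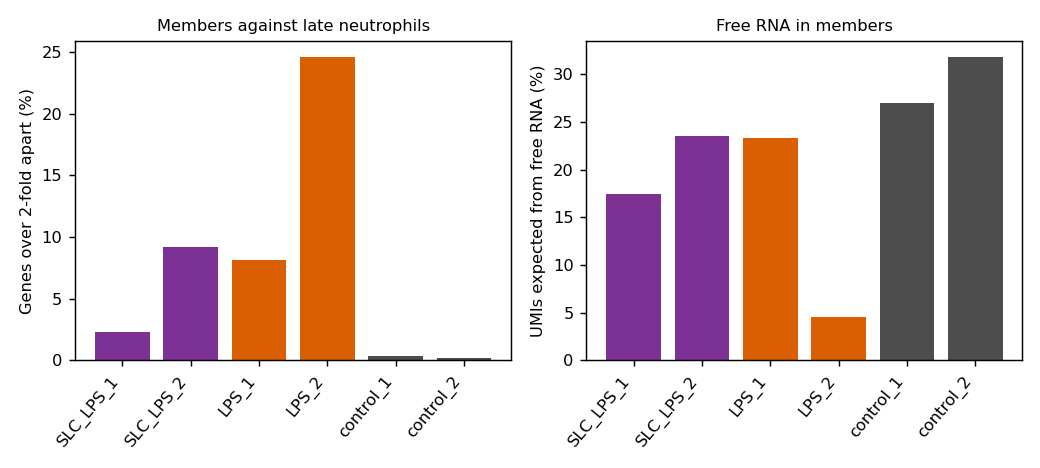
Left, the percentage of genes of at least 100 CPM that were over 2-fold apart between members and late neutrophils of the same library; right, the percentage of member UMIs expected from free RNA. Control libraries had the lowest bars on the left (0.394% and 0.199%) and the highest on the right (27% and 31.9%), and LPS_2 had the highest on the left (24.6%) and the lowest on the right (4.52%).

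The comparison of LPS with control asked which genes differ in members 3 days after LPS. In members of LPS lungs the genes of inducible nitric oxide synthase (Nos2), an acute phase apolipoprotein (Saa3), a Ly6-family surface protein (Ly6i) and the interferon-inducible GTPases Ifi47 and Irgm1 were higher than in control. In edgeR's quasi-likelihood test 28 genes rose and 66 fell among 9258 tested, which is 1.02% of genes at a Benjamini-Hochberg adjusted p under 0.05 (0.302% higher and 0.713% lower). None of the 28 rises had 50% or more of its level expected from free RNA, but 59 of the 66 falls did, and in 44 of these free RNA accounted for 100% of the level. Gsn, gelsolin, which fibroblasts make in quantity, was at 119.8 and 51.4 CPM in LPS and 684 and 1047 CPM in control, and Inmt, a lung fibroblast methyltransferase, at 10.3 and 4.11 CPM in LPS and 184 and 226 CPM in control, with 62.9% and 85.8% of their control level expected from free RNA. Of the 7 other falls, Foxq1, a forkhead transcription factor picked after its values were seen, was at 2.94 and 3.2 CPM in LPS and 28.2 and 28.5 CPM in control (-2.97 ± 0.51, edgeR adjusted p = 0.0298).

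Nos2, which makes nitric oxide from arginine, was at 97 and 221 CPM in LPS and 0.614 and 0 CPM in control. The control libraries held 1 Nos2 UMI against 1233 in the LPS libraries, a ratio of 447 with a counting interval of 80.1 to 17672. The edgeR log2 fold change was 8.80 ± 0.86 (SE; adjusted p = 0.00378), and Nos2 was the only named rise that passed with each library left out in turn, up to an adjusted p of 0.0311 in edgeR. Saa3, an acute phase apolipoprotein of inflamed tissue, was at 842 and 166 CPM in LPS and 6.14 and 5.29 CPM in control (log2 fold change 6.51 ± 0.73, edgeR adjusted p = 0.00711), with 37.2% expected from free RNA in LPS. Ly6i, a GPI-anchored surface protein, was at 907 and 698 CPM in LPS and 16 and 21.1 CPM in control (log2 fold change 5.63 ± 0.64, edgeR adjusted p = 0.00711). In these 3 genes the lowest LPS library lay far above the highest control library, and LPS_2 was well under LPS_1 in Saa3.

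In a list of 44 interferon-response genes, 3 rose in LPS members, although the rule had removed cells with 3 or more UMIs of Rsad2, Ifit1, Ifit2 and Ifit3. Ifi47 and Irgm1 are immunity-related GTPases that act on membranes around intracellular pathogens, and Zbp1 is a sensor of Z-form nucleic acid that can start necroptosis. Ifi47 was at 209.9 and 472 CPM in LPS and 14.1 and 11.6 CPM in control, a log2 fold change of 4.98 ± 0.86 (edgeR adjusted p = 0.0385). Irgm1 was at 133 and 251 CPM in LPS and 14.1 and 12.7 CPM in control, a log2 fold change of 4.09 ± 0.75 (edgeR adjusted p = 0.0412). Zbp1 was at 113 and 112 CPM in LPS and 8.6 and 7.4 CPM in control, a log2 fold change of 3.999 ± 0.76 (edgeR adjusted p = 0.0434). These 3 were the only genes of that list to pass, among 40 tested. All 3 rose, 37 did not pass and 37 had a positive fold change, and the list's median log2 fold change was 1.53 beside 0.02 over all genes. Parp12, Ifi209 and Psmb10, which are outside the list and were picked after their values were seen, also rose. Their log2 fold changes were 3.14, 3.66 and 2.84 (edgeR adjusted p = 0.0412, 0.0488 and 0.0412).

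The promoters of 3 of these risen genes are shown because Ifi47 and Irgm1 lie on the same chromosome and rose together, and Saa3 had the next largest change after Nos2 among the named rises. Sequences are the 250 bases before and 50 bases after the gene's start from RefSeq on build GRCm38.p6, an older build than the GRCm39 named for the deposited counts, 5′ to 3′ on the gene's strand, with matches in capitals. For Ifi47 and Irgm1 the letters GAAA, any 2 bases, GAAA (the core of the interferon-stimulated response element) and TTCNNNGAA (the gamma-activated site) were searched on both strands, and for Saa3 the letters TTGCNNAA (C/EBP) and GGGA, any 4 bases, CC (NF-kB).
Ifi47, chr11:49076337-49076636, plus strand: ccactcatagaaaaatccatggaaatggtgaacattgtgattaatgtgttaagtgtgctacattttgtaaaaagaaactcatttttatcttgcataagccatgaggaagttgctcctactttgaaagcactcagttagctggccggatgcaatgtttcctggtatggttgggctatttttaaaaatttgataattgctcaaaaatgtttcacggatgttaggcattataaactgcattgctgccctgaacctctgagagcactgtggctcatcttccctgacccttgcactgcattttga
Irgm1, chr11:48871371-48871670, minus strand: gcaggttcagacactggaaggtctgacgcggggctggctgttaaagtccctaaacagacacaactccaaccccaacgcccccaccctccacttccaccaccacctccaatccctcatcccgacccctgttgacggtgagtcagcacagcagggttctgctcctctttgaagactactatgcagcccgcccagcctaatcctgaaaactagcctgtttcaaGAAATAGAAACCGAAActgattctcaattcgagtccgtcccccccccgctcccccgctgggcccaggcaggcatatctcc
Saa3, chr7:46715627-46715926, minus strand: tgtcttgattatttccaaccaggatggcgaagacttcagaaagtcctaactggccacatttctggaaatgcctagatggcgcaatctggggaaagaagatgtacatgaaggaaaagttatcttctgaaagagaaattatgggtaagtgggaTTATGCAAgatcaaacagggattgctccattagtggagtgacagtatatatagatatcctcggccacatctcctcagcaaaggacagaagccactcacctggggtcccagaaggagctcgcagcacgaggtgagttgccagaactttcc
Irgm1 held 2 overlapping matches to the interferon-stimulated element, which are GAAATAGAAA and GAAACCGAAA, starting at positions -30 and -24 relative to the gene's start. Saa3 held 1 match to TTGCNNAA, read on the other strand, and none to the NF-kB letters, and neither set of letters searched for Ifi47 was in its window. Of 32851 promoters of the same length, 3.44% held the interferon-stimulated element, 8.3% TTCNNNGAA, 10.8% TTGCNNAA and 20.7% the NF-kB letters. A match is a run of letters and not a shown binding site.

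Other rises met the naming rule in LPS members. Plac8, a small cysteine-rich protein of myeloid cells, was at 855 and 2550.3 CPM in LPS and 149.8 and 170.2 CPM in control (3.71 ± 0.63, edgeR adjusted p = 0.0298). Prnp, the prion protein, was at 184 and 343 CPM in LPS and 30.1 and 50.7 CPM in control (2.98 ± 0.48, edgeR adjusted p = 0.023). Aoah, the enzyme that removes acyl chains from LPS, was at 142 and 90.4 CPM in LPS and 19 and 24.3 CPM in control (2.60 ± 0.34, edgeR adjusted p = 0.00923), with 45% expected from free RNA. Upp1, uridine phosphorylase, had a log2 fold change of 2.48 ± 0.48 (edgeR adjusted p = 0.0412). None of these groups overlapped, which the naming rule requires.

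Other genes that passed came from the lists of neutrophil functions. Il1a, the interleukin 1 alpha cytokine, was at 3117 and 1511 CPM in LPS and 585 and 749 CPM in control, a log2 fold change of 1.94 ± 0.37 (edgeR adjusted p = 0.0412), and was the only riser among 30 cytokine and chemokine genes tested. Wfdc21, a whey acidic protein domain protein, was at 1639.8 and 1357 CPM in LPS and 439 and 411 CPM in control (2.01 ± 0.33, edgeR adjusted p = 0.0257), and was the only riser among 24 genes of the Retnlg program. Ikbke, a kinase of the NF-kB and interferon pathways, was at 214 and 201 CPM in LPS and 44.2 and 62.4 CPM in control (2.17 ± 0.34, edgeR adjusted p = 0.022). Adora2b, a Gs-coupled adenosine receptor, was at 33.5 and 58.2 CPM in LPS and 1.23 and 1.06 CPM in control, where 3 UMIs were counted (ratio 41.8, counting interval 14.2 to 204; edgeR adjusted p = 0.00835). Il12b, the shared subunit of interleukin-12 family cytokines, fell in the same cytokine list, at 0.368 and 0 CPM in LPS and 6.14 and 18 CPM in control (edgeR adjusted p = 0.0468). That level is too low for the naming rule, and Il12b was picked after its values were seen. A list of 6 dendritic cell genes summed to 5.48 to 19.1 CPM in LPS members and 33.8 to 38.7 CPM in control members. The part of such transcripts in the fall of Il12b was not tested. Timp3, an inhibitor of metalloproteinases, also fell, with 100% of its control level expected from free RNA. The background for the rises was the 0.302% of all genes that rose.

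No gene of the list of stefins and cystatins passed, although the list had the largest median shift of the lists. Of 8 tested, 7 had a positive fold change, with a median of 2.83. Stfa2 was at 114 and 952 CPM in LPS and 19 and 8.46 CPM in control (5.55 ± 1.14, edgeR adjusted p = 0.0676), and the spread between the LPS libraries was wide. Csta2, a stefin outside that list that was picked after its values were seen, passed at 40.8 and 84.7 CPM in LPS and 1.84 and 3.17 CPM in control (4.97 ± 0.83, edgeR adjusted p = 0.0295). The stefin genes are near-identical neighbours, and no label states how reads were divided among them.

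The remaining lists gave no riser in LPS members. No gene passed among 10 early granule genes, 15 chemoattractant receptors, 16 adhesion genes, 23 survival and death genes, 22 antigen presentation and checkpoint genes, 32 hypoxia and glycolysis genes, 28 immediate early genes, 15 glucocorticoid-response genes, 28 pattern recognition genes and 18 genes of Siglecf-positive tissue neutrophils. Cd14, the LPS co-receptor, was at 5939 and 5692 CPM in LPS and 2652 and 2802 CPM in control (1.30 ± 0.34, edgeR adjusted p = 0.101). Lcn2, the iron-scavenging lipocalin, was at 2118 and 1026 CPM in LPS and 575 and 529 CPM in control (1.65 ± 0.38, edgeR adjusted p = 0.0676). Cxcr4, the marrow-homing receptor, was at 144 and 125 CPM in LPS and 329 and 230.5 CPM in control (-0.87 ± 0.34, edgeR adjusted p = 0.272). In these 3 genes the groups did not overlap, but the test was not passed.

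The calls of LPS against control changed most with the control libraries. Without control_1 12 genes passed and without control_2 4 passed, so that 13 and 14 of the 15 named calls ended, while without LPS_1 951 passed, and without SLC_LPS_1 and SLC_LPS_2, which enter only through the shared spread, 149 and 143. Without LPS_2, 80 genes passed and 48 of the 94 calls were kept. Ifi47, Irgm1, Zbp1 and Upp1 then ended, so all 3 calls of the interferon list also depend on LPS_2, and Zbp1 ended without LPS_1 as well. With the expected free RNA subtracted from the counts, none of the 94 calls remained and 1 other gene, mt-Co3, passed. This subtraction rounds the counts and allows no negative ones, and mt-Co3 had a log2 fold change of 13.3 in it. Genes with little expected free RNA also ended, among them Nos2 (7.28%) and Plac8 (4.93%). Why the calls ended was not tested.

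The comparison of SLC_LPS with control asked the same of mice that had SLC activation as well as LPS. It shares its control libraries with the comparison above. In edgeR 14 genes rose and 20 fell, 0.367% of 9258 (0.151% higher and 0.216% lower), and 19 of the falls and 1 of the rises, Aoah, had 50% or more expected from free RNA. The fall with less was Foxq1, at 1.44 and 0.777 CPM in SLC_LPS and 28.2 and 28.5 CPM in control (-4.65 ± 0.58, edgeR adjusted p = 0.0124); both genes were picked after their values were seen. Saa3 was at 711 and 806 CPM in SLC_LPS and 6.14 and 5.29 CPM in control (6.96 ± 0.74, edgeR adjusted p = 0.00891), and Ly6i at 355 and 1131 CPM in SLC_LPS and 16 and 21.1 CPM in control (5.32 ± 0.63, edgeR adjusted p = 0.0124). Nos2 was at 44.2 and 39.2 CPM in SLC_LPS, a ratio to control of 109 with a counting interval of 19.4 to 4315 (edgeR adjusted p = 0.0224). All treated libraries were above all control libraries in these 3 genes.

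Other rises met the naming rule or came from the lists. Fcgr2b, the inhibitory Fc receptor for IgG, was at 411 and 257 CPM in SLC_LPS and 41.1 and 52.9 CPM in control (2.75 ± 0.42, edgeR adjusted p = 0.0253), the only riser among 28 pattern recognition genes. Cd38, an ectoenzyme that consumes NAD, was at 53.1 and 55.5 CPM in SLC_LPS and 6.76 and 7.4 CPM in control (2.87 ± 0.45, edgeR adjusted p = 0.0274), with 43% expected from free RNA. Klhl6, an adaptor of ubiquitin ligases, was at 97.3 and 75.7 CPM in SLC_LPS and 7.98 and 6.34 CPM in control (3.48 ± 0.52, edgeR adjusted p = 0.0224). Lipg, endothelial lipase, was at 166 and 161 CPM in SLC_LPS and 33.8 and 28.5 CPM in control (2.31 ± 0.34, edgeR adjusted p = 0.0224). The replicates of SLC_LPS lay close together in each of these 4 except Fcgr2b. Prnp (3.32 ± 0.48), Wfdc21 (2.21 ± 0.33), Ikbke (2.08 ± 0.34) and Adora2b (39.6 and 28.7 CPM against 1.23 and 1.06 CPM in control) also rose. Lipg and Cd38 passed in LPS against control too, though the naming rule did not reach them there. Lipg was at 183 and 107 CPM in LPS (2.37 ± 0.34, edgeR adjusted p = 0.0144). Cd38 was at 39.3 and 54.8 CPM in LPS (2.97 ± 0.45, edgeR adjusted p = 0.0191).

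No gene of the interferon list passed in this comparison. Of the 40 tested, 29 had a positive fold change, with a median of 0.67 beside 0.06 over all genes. Ifi47 was at 59.1 and 264 CPM in SLC_LPS (3.61 ± 0.82, edgeR adjusted p = 0.117) and Irgm1 at 25.5 and 101 CPM (2.20 ± 0.72, edgeR adjusted p = 0.232), with SLC_LPS_1 low and SLC_LPS_2 high in both. Il1a was at 3004 and 2749 CPM in SLC_LPS and 585 and 749 CPM in control, just outside the threshold (2.04 ± 0.37, edgeR adjusted p = 0.0525). Without control_1 5 genes passed, all of them falls, without control_2 none passed, and without SLC_LPS_2 13 passed. Without LPS_1 or LPS_2, which enter only through the shared spread, 267 and 274 passed, and with free RNA subtracted 1 gene passed, mt-Co3, which was not among the 34.

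By their labels, SLC_LPS and LPS mice differ by SLC activation. Members differed between these groups in 1 gene of 9258 (0.0108%) by edgeR, with 383 at an unadjusted p under 0.05 and 11 passing in DESeq2. That gene was Slc15a2, a proton-coupled transporter of small peptides, which the naming rule would not have reached because of its low level and which was picked after its values were seen. It was at 34.6 and 20.2 CPM in SLC_LPS, 0.735 and 0.228 CPM in LPS and 28.9 and 37 CPM in control. Only 3 UMIs were counted in the LPS libraries, and the ratio of SLC_LPS to LPS was 68.8 with a counting interval of 23.2 to 337 (edgeR log2 fold change 5.57 ± 0.61, adjusted p = 0.021). The SLC_LPS libraries overlapped the control libraries, and it was the LPS libraries that stood apart (LPS over control: ratio 0.0133, counting interval 0.00268 to 0.0402, edgeR adjusted p = 0.00452). Sec22c, a protein of the secretory pathway that was likewise picked after its values were seen, had the same order at 57.9 and 32.6 CPM in SLC_LPS, 4.41 and 1.6 CPM in LPS and 49.1 and 43.3 CPM in control (edgeR adjusted p = 0.0506 for SLC_LPS against LPS). Slc15a2 did not pass without LPS_2, with free RNA subtracted, with at least 4 UMIs of the 3 genes required, or under the stricter cell filter.

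Among genes of 50 CPM or more in each library of a group, the 5 with the smallest unadjusted p were lower in SLC_LPS than in LPS, and none of these passed. Nos2 was at 44.2 and 39.2 CPM in SLC_LPS and 97 and 221 CPM in LPS (-2.28 ± 0.48, edgeR adjusted p = 0.732). H2-T23, a nonclassical MHC class I molecule, was at 29.5 and 15.5 CPM in SLC_LPS and 69.5 and 192 CPM in LPS (-2.91 ± 0.58, edgeR adjusted p = 0.648). Mdm1, a microtubule-binding protein, was at 29.1 and 20.2 CPM in SLC_LPS and 83.1 and 79.5 CPM in LPS (-2.005 ± 0.34, edgeR adjusted p = 0.286). The groups did not overlap in these 3, nor in Sgk1, a kinase induced by glucocorticoids (46.3 and 36.1 CPM in SLC_LPS, 87.9 and 84.3 CPM in LPS), and Cd300a, an inhibitory receptor (104 and 70.7 CPM in SLC_LPS, 151 and 372 CPM in LPS). Tnf was at 1304 and 1188 CPM in SLC_LPS and 2212 and 2203 CPM in LPS (-1.11 ± 0.33, edgeR adjusted p = 0.938), and Tnfsf9, a ligand of the TNF family, at 11.5 and 9.71 CPM in SLC_LPS and 39.3 and 32 CPM in LPS (-2.01 ± 0.36, edgeR adjusted p = 0.348).

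No list had a gene that passed between SLC_LPS and LPS. The median log2 fold change was -1.01 over 40 interferon genes, of which 2 were positive, -0.79 over 8 stefins and cystatins, -0.51 over 22 antigen presentation and checkpoint genes and -0.36 over 28 pattern recognition genes, of which 1 was positive. The median over all genes was 0.06. The SLC_LPS libraries differed in the interferon genes named above: Zbp1 was at 21.9 CPM in SLC_LPS_1 and 105 CPM in SLC_LPS_2, against 113 and 112 CPM in LPS. The rule had also set aside 6.35% and 20.2% of gated neutrophils as interferon-signature cells in SLC_LPS, and 24.3% and 25.8% in LPS. The part of either in the interferon median was not tested. Of 27 adrenergic, adenosine and cAMP genes the median was 0.01. Of 15 glucocorticoid-response genes the median was 0.07. The number of genes passing between SLC_LPS and LPS depended on single libraries: without LPS_1, which leaves LPS_2 as the only LPS library, 385 genes passed, and without LPS_2 none passed.

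**Figure D4:**
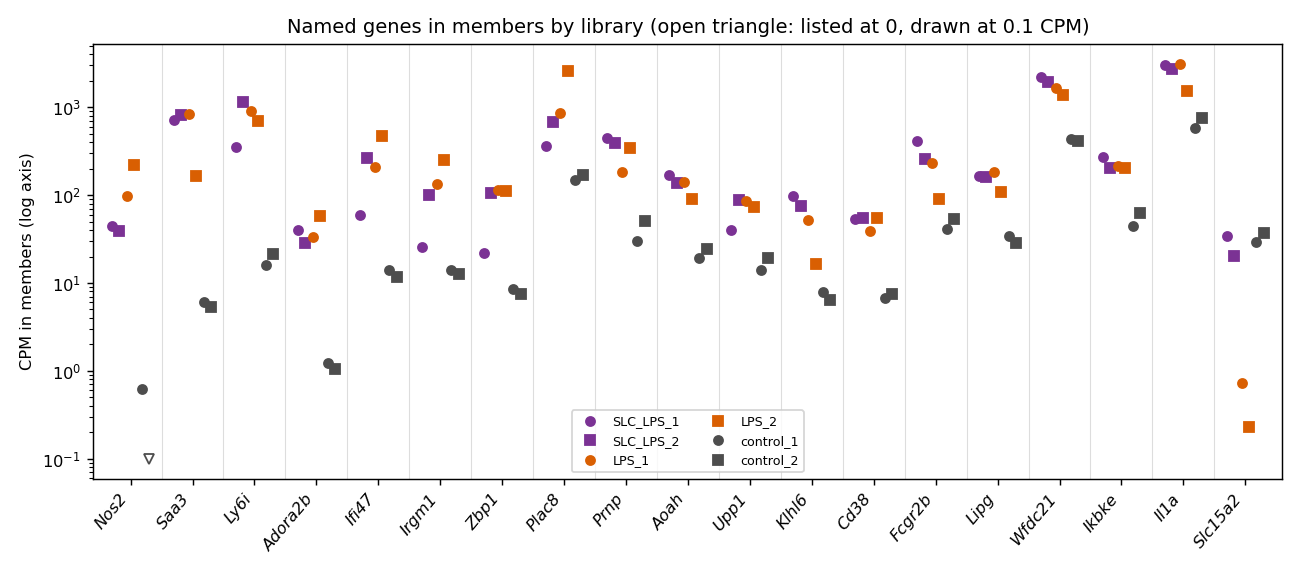
Levels of 19 genes in members, in CPM of summed UMIs on a log axis, with 1 point per library and the groups SLC_LPS, LPS and control from left to right within each gene. Nos2 was at 44.2 and 39.2 CPM in SLC_LPS, 97 and 221 CPM in LPS and 0.614 and 0 CPM in control, and Slc15a2 is the 1 gene shown in which the LPS libraries lay lowest.

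A group difference can be larger or smaller in members than in the late neutrophils of the same libraries, and this was tested as the interaction of subset and group with the library as a block. The 2 subsets were not equally far apart in each group. Genes over 2-fold apart were 2.3% and 9.21% in SLC_LPS, 8.12% and 24.6% in LPS, and 0.394% and 0.199% in control. How far this unequal split by the cut of 2 UMIs enters the interactions was not tested. Between LPS and control, 179 of 9142 genes (1.96%) differed in edgeR: in 163 the change in members was the higher of the pair and in 16 (0.175%) the lower. In Rdh12, R3hdm4, Bmx and Pi16 the LPS and control levels lay closer together in members than in late neutrophils, and in Slc40a1 they lay further apart. Rdh12 averaged 623 ± 274 CPM in LPS and 658 ± 72.5 CPM in control in members, and 71.3 ± 15.7 CPM in LPS and 373 ± 7.69 CPM in control in late neutrophils (SD, n = 2 each), an interaction of 2.54 ± 0.27, edgeR adjusted p = 0.000247. R3hdm4 averaged 308 ± 20.9 CPM in LPS and 217 ± 1.24 CPM in control in members, and 49.9 ± 1.08 CPM in LPS and 151 ± 19.9 CPM in control in late neutrophils (SD, n = 2 each), an interaction of 2.37 ± 0.30, edgeR adjusted p = 0.000614. Bmx, a kinase of the Tec family, averaged 61.2 ± 20.6 CPM in LPS and 97.5 ± 4.14 CPM in control in members, and 5.93 ± 1.44 CPM in LPS and 51.2 ± 2.51 CPM in control in late neutrophils (SD, n = 2 each), an interaction of 2.69 ± 0.50, edgeR adjusted p = 0.00804. Pi16, a peptidase inhibitor, averaged 31.6 ± 24.4 CPM in LPS and 64.2 ± 4.85 CPM in control in members, and 4.79 ± 5.37 CPM in LPS and 44.9 ± 3.56 CPM in control in late neutrophils (SD, n = 2 each), an interaction of 2.38 ± 0.50, edgeR adjusted p = 0.0185. Slc40a1, the iron exporter, was the exception: it averaged 161 ± 113 CPM in LPS and 58.7 ± 3.81 CPM in control in members, and 30.6 ± 5.91 CPM in LPS and 56.9 ± 33.9 CPM in control in late neutrophils (SD, n = 2 each), an interaction of 2.42 ± 0.54, edgeR adjusted p = 0.0344.

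In the opposite direction stood genes whose LPS and control levels were far apart in late neutrophils and closer in members. Mreg, melanoregulin, averaged 75 ± 42.1 CPM in LPS and 33.1 ± 3.51 CPM in control in members, and 257 ± 34.5 CPM in LPS and 28.9 ± 14.3 CPM in control in late neutrophils (SD, n = 2 each), an interaction of -1.81 ± 0.44, edgeR adjusted p = 0.0435. Ptgs1, the constitutive cyclooxygenase, averaged 21.5 ± 11.7 CPM in LPS and 14.1 ± 3.5 CPM in control in members, and 98.3 ± 21 CPM in LPS and 7.93 ± 4.56 CPM in control in late neutrophils (SD, n = 2 each), an interaction of -2.82 ± 0.70, edgeR adjusted p = 0.0457. Tgs1, a methyltransferase of RNA caps, the cell cycle kinase Cdk6 and the adhesion protein Tns3 had interactions of -2.60, -2.60 and -1.83, with edgeR adjusted p of 0.0444, 0.014 and 0.0438. In Cdk6 and Tns3 100% of the control level in members was expected from free RNA, and its part in their interactions was not tested. In Mreg, Ptgs1 and Tgs1 every LPS library of late neutrophils was above every control library.

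Between SLC_LPS and control 21 genes (0.23%) differed, each with the higher change in members, and between SLC_LPS and LPS 0 of 9142 passed, with 427 at an unadjusted p under 0.05 and 0 passing in DESeq2. Cd244a, a receptor of the SLAM family, averaged 68.1 ± 3.61 CPM in SLC_LPS and 84.1 ± 27.8 CPM in control in members, and 21.1 ± 11.2 CPM in SLC_LPS and 125 ± 43.8 CPM in control in late neutrophils (SD, n = 2 each), an interaction of 2.52 ± 0.36, edgeR adjusted p = 0.00774. Myadm, a membrane protein of myeloid cells, averaged 299 ± 58.9 CPM in SLC_LPS and 747 ± 482 CPM in control in members, and 105 ± 44.8 CPM in SLC_LPS and 794 ± 407 CPM in control in late neutrophils (SD, n = 2 each), an interaction of 1.80 ± 0.26, edgeR adjusted p = 0.00774. Rdh12 had an interaction of 1.78 ± 0.26, edgeR adjusted p = 0.00774 here, Lrg1, a glycoprotein of neutrophil granules, one of 1.81 ± 0.28, edgeR adjusted p = 0.00963, and Tcp11l2 one of 1.84 ± 0.32, edgeR adjusted p = 0.0246. The counts fell to 5 and 0 genes for LPS against control without control_1 and without control_2, and to 0 and 0 for SLC_LPS against control, and rose to 1160 and 184 without LPS_1. Without SLC_LPS_1 and without SLC_LPS_2 1 and 5 genes passed for SLC_LPS against control. With free RNA subtracted, 18 and 0 genes passed.

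**Figure D5:**
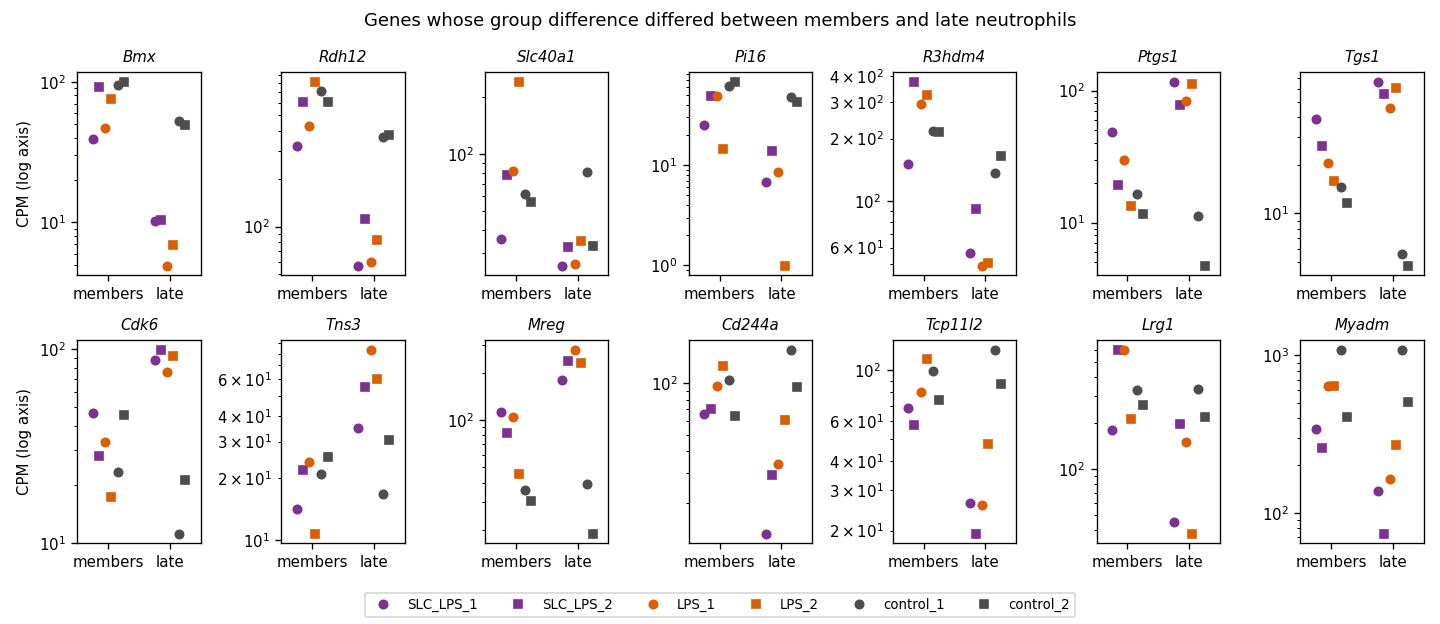
Levels of the 14 genes with the leading interactions in members and late neutrophils, in CPM on a log axis with 1 point per library (colours mark the groups, circles replicate 1 and squares replicate 2). For Rdh12 the treated libraries of late neutrophils were at 56.6 to 111 CPM in SLC_LPS and 60.1 to 82.4 CPM in LPS, under the 368 and 379 CPM of control, while in members the LPS and control libraries overlapped and both SLC_LPS libraries lay below both control libraries, by under 1 CPM for the nearest pair.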

How the data were processed

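Single-cell RNA was measured in 6 lung libraries. The authors deposited raw UMI counts, as a matrix of genes by barcodes for each library. Builds GRCm39 and mm39 are listed in the submitters' processing notes, and the labels name no counting tool. Matrices were unfiltered. Members and gene lists were chosen with earlier results of these data known. Scrublet (scanpy 1.11.5) called 0% to 2.14% of cells per library and did not work in the SLC_LPS libraries, so no doublets were removed and leaving out the top 6% of scores was an alternative. UMI counts were summed per library and subset, without the 22 rule genes among the genes tested, and tested with edgeR 4.0.16 (TMM, filterByExpr, robust quasi-likelihood F test, all 6 libraries in 1 fit), with adjusted p by Benjamini-Hochberg over all genes tested. A printed SE is the absolute log2 fold change divided by the square root of F. DESeq2 1.42.0 was an alternative. The p-values measure the spread between the libraries of a group.

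The percentage of a gene expected from free RNA is its share in barcodes of 10 to 100 UMIs, scaled per library by 12 stromal, epithelial and endothelial genes, and is given for the higher group. Named genes were up to 10 rises and 10 falls per comparison by fold change among those that passed, had 50 CPM or more in each library of the higher group, did not overlap and had under 50% expected from free RNA (predicted, ribosomal, mitochondrial, haemoglobin and receptor-segment genes left out); where fewer than 3 passed, the 5 smallest p; up to 4 genes per list; and up to 5 per direction of the interaction. No fall met this rule. Replicate numbers did not pair the libraries. The tests were checked on simulated counts.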

Additional observations from a re-analysis of the deposited data

Results flagged for a closer look

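The genes below are given here because a test of the difference itself, edgeR's interaction of subset and group, passed at an adjusted p under 0.05. Members and late neutrophils were closest in control, where 0.394% and 0.199% of genes were over 2-fold apart, against 8.12% and 24.6% in LPS. The part of this unequal split by the cut of 2 UMIs in the interactions was not tested. Between LPS and control the difference of the group changes, members minus late neutrophils, was 2.69 in Bmx, 2.54 in Rdh12, 2.42 in Slc40a1, 2.38 in Pi16, 2.37 in R3hdm4, -2.82 in Ptgs1, -2.60 in Tgs1, -2.60 in Cdk6, -1.83 in Tns3 and -1.81 in Mreg on the log2 scale. Between SLC_LPS and control the difference of the group changes, members minus late neutrophils, was 2.52 in Cd244a, 1.84 in Tcp11l2, 1.81 in Lrg1, 1.80 in Myadm and 1.78 in Rdh12 on the log2 scale. The late neutrophils of the same libraries are the other subset, and their levels stand beside those of members in the report. Of the named interactions, 8 of 10 for LPS against control ended without control_1 and 10 of 10 without control_2, and 5 of 5 for SLC_LPS against control ended without either control library. Free RNA made up 17.5% and 23.5% of member UMIs and 19.2% and 27.1% of late-neutrophil UMIs in SLC_LPS, 23.4% and 4.52% against 23.9% and 8.86% in LPS, and 27% and 31.9% against 32.4% and 32.2% in control, and its part in these differences was not tested.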

How the results depend on the processing

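The number of genes passing in members depended on the processing. For LPS against control it was 94, and 304 with DESeq2, 594 without the low-count filter, 58 with at least 4 UMIs of the 3 genes, 48 without the top 6% of doublet scores, 1 with free RNA subtracted and 17 without genes of 50% or more free RNA. For SLC_LPS against control it was 34, and 150, 303, 1 and 14 with DESeq2, no filter, subtraction and those genes left out. For SLC_LPS against LPS it was 1, and 11 with DESeq2, 51 without the filter, 0 with at least 4 UMIs, the strict filter or subtraction, 2 without the top doublet scores (Sec22c, Slc15a2) and 2 without genes of 50% or more free RNA. Leaving out 1 library gave 4 to 951, 0 to 274 and 0 to 385 genes in the 3 comparisons, in that order. The interaction counts of 179, 21 and 0 became 276, 46 and 2 (Mgst1, Wfdc21) without the filter, 299 and 48 for the first and second with at least 4 UMIs, 18 and 0 for these with subtraction, and 0 to 1160, 0 to 186 and 0 to 681 with 1 library left out. The share of members among gated neutrophils reversed for LPS minus control (-24.1 points unthinned, -12.6 with at least 4 UMIs, -4.41 with at least 1 UMI, -14.1 with the strict filter at 1000 UMIs; -1.89 to 13.6 leaving out 1 library). It reversed for SLC_LPS minus control as a share of kept cells (8.11; -10.5 to 5.12 leaving out 1 library) and for SLC_LPS minus LPS unthinned (5.35) and with at least 4 UMIs (0.209; -16.4 to -0.761 leaving out 1 library). The cause was not tested. Single named results gave 3312 values under the alternatives. Of these, 2908 kept their side of the threshold, 245 newly passed and 159 no longer passed. A change of sign was counted as reversed only where the main fit or the alternative passed, and 0 were. Any change of sign with neither fit passing is among the 2908.

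With the replicate number as a block, 131, 34 and 3 genes passed in the 3 comparisons (Gm47015, Sec22c and Slc15a2 in the last). Deviations of same-numbered libraries correlated at 0.0952 (SLC_LPS and LPS), 0.0429 (SLC_LPS and control) and 0.0735 (LPS and control) over 2602 genes, and the numbers are taken as names, not pairs.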
